A study of Mus musculus with 6 samples.

Results

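The synaptic vesicle and exocytosis gene families were followed in amygdala RNA from mice on 2 diets. They comprised the genes whose only array annotation symbol was Syn1, Syn2 or Syn3, or began with Syt, Stx, Vamp, Snap, Sv2, Rab3, Cplx, Rims or Unc13. This gave 95 genes of the 18193 with a single symbol on the array. Each gene was represented by its probe set, the group of short probes that measures 1 transcript, with the highest mean over the 6 arrays. The choice used levels over all mice and not the difference between diets.

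The samples were the dissected amygdalae of 6 male 129S1/SvImJ (S1) mice aged 8 to 10 weeks, taken 2 h after the end of fear extinction training, in which a conditioned cue is presented without the shock it once announced. All 6 mice had this training, so no group without it is compared here. Replicates 1, 9 and 11 had the control diet and replicates 3, 7 and 10 the zinc diet, with 1 array per mouse. The zinc diet is written "Zn" and "ZnR" in the labels, which give no zinc content for either diet, so the direction in which the diets differed in zinc cannot be read from them.

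Chemical transmission rests on vesicles that are loaded with transmitter, tethered at the active zone, primed, and fused with the plasma membrane when calcium enters. Fusion is driven by SNARE proteins: a VAMP on the vesicle zippers with a syntaxin and a SNAP protein on the target membrane. Some synaptotagmins sense the calcium, complexins hold and release the assembled SNAREs, and UNC13 and syntaxin-binding proteins prepare them. RIMs and RAB3 bring vesicles to the release site, synapsins tether the reserve pool, and SV2 proteins sit in the vesicle membrane. In the amygdala this machinery serves both excitatory and inhibitory terminals, and a part of the excitatory terminals also releases zinc from vesicles.

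The prefixes also took in genes with other roles. The 5 Snapc genes encode a complex that transcribes small nuclear RNAs, and the 12 genes from Rab30 to Rab39b encode RAB GTPases outside the RAB3 group. Several syntaxins, VAMPs and synaptotagmin-like genes act in endosomes, the Golgi or secretory granules rather than at synapses.

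The promoters of 3 genes are shown because they belong to members described below: Syt2 and Stxbp5l, which had the smallest p-values among the members with an entry, and Syn1, long used as a neuron-specific promoter. They are the 250 bases before the RefSeq start of each gene in mouse assembly GRCm38.p6, written 5′ to 3′ on the strand of the gene. The Syt2 window lies at chr1:134646362-134646611 on the plus strand and is the first of 2 listed starts. The Stxbp5l window lies at chr16:37384959-37385208 on the minus strand, and the Syn1 window at chrX:20920919-20921168 on the minus strand. Capitals mark matches, on either strand, to GGGCGG (the GC box), TGACGTCA (the cAMP response element) and TTCAGCACC (the left arm of the RE1 element bound by the neuronal gene repressor REST), none of which overlap here.
Syt2: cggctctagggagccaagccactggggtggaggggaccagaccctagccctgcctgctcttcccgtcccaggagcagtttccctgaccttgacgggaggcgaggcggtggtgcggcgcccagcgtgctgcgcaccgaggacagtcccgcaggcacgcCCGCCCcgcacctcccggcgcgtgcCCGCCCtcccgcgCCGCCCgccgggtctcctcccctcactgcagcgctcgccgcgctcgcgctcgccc
Stxbp5l: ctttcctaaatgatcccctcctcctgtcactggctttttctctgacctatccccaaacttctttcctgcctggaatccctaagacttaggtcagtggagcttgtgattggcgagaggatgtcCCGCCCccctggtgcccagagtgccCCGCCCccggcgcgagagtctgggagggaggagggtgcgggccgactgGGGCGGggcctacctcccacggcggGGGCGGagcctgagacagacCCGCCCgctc
Syn1: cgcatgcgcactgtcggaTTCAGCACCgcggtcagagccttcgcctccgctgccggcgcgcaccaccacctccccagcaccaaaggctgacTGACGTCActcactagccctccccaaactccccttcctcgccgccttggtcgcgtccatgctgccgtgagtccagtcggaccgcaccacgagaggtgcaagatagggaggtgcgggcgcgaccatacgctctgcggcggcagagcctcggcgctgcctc
The Syt2 window held 3 GC boxes, the Stxbp5l window 5, and neither held the other motifs. The Syn1 window held 1 cAMP response element and 1 left arm of RE1, and no GC box. Of 95 promoter windows listed for 74 of the members, 60.0% held a GC box, 3.16% the cAMP response element and 1.05% the RE1 arm, against 32.7%, 1.55% and 0.301% of all 32851 windows. The members with the cAMP response element were Syn1, Stxbp3 and Snapc5. These are matches of letters and say nothing about binding.

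None of the members differed between the diets by the test applied to the whole array, and for most the interval of the difference was narrow. Values are log2 levels, so a difference of 1 is a doubling, and a positive difference means higher in zinc diet mice. Of the 95 members, 78 had a mean log2 level of at least 4 over the 6 arrays and were tested together with all other probe sets above that level. With limma and Benjamini-Hochberg adjustment over 22877 probe sets, 0 of the 78 had an adjusted p under 0.05 (smallest 0.58), and 0% of all probe sets did. At an unadjusted p under 0.05 there were 4 members, all higher in zinc diet mice: Syt2, Stxbp5l, Sytl2 and Vamp7. They were 5.13% of the members tested, against 7.04% of all 11221 genes tested; 4.36% of all genes passed that p as higher and 2.68% as lower. The share of the members was thus below that of all genes in both directions together and slightly above it for higher values alone. Of the 4, Syt2 passed the level limit only through the zinc diet mice. With a mean of at least 4 in each diet, 3 of 76 members (3.95%) had an unadjusted p under 0.05 in limma, all higher. The share of all genes under that limit was 6.87% in both directions together.

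The diets did not overlap in 9 members that were higher in every zinc diet mouse (11.5%, against 8.12% of all genes tested) and in 4 that were lower in every zinc diet mouse (5.13%, against 5.55%). The 9 were Syt2, Stxbp5l, Sytl2, Vamp7, Snap29, Stx6, Syn3, Rab39b and Snap25, and the 4 were Stxbp5, Stxbp4, Stx18 and Rab36. The median log2 difference was 0.014 over the 78 members and 0.012 over all genes tested, with 43 members at a positive and 35 at a negative value. The median size of the difference, whatever its sign, was 0.077 for the members and 0.080 for all genes tested, and 90% of the members differed by less than 0.23. For 73 of the 78 members (93.6%, against 89.9% of all genes tested) the 95% confidence interval of the difference lay wholly within 1.5-fold in both directions. The 5 whose interval reached further, each on the higher side, were Syt2, Sytl2, Cplx3, Vamp1 and Rab39. In bulk tissue a lower level can come from fewer cells of a type or from less RNA per cell, and the measurements here cannot tell these apart.

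**Figure D1:**
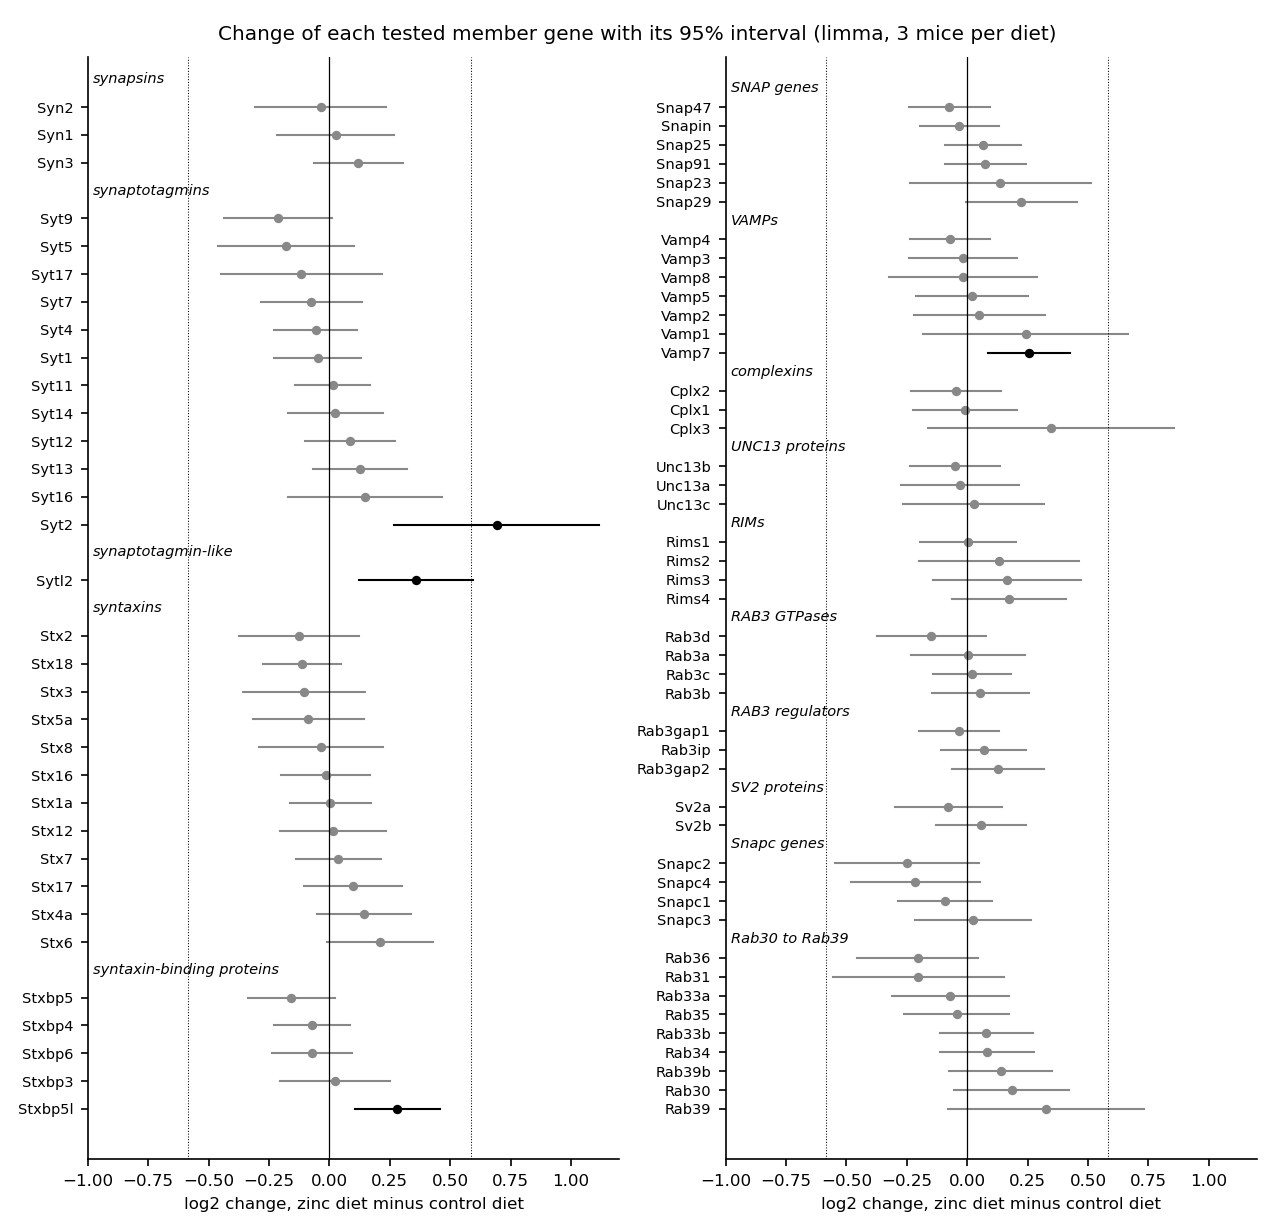
Log2 difference between zinc and control diet (x axis) for each of the 78 members tested, by family, with 95% intervals from limma as lines; black marks an unadjusted p under 0.05 and dotted lines mark 1.5-fold. Nearly all intervals cross 0, and 73 of 78 lie between the dotted lines.

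Beside these values, marker lists of cell types and regions were read in the same mice. The lists were chosen with earlier results of these data known, and tissue content and level per cell cannot be told apart here. The mean level of 10 general neuron markers was 12.51 to 12.57 in control mice and 12.53 to 12.57 in zinc diet mice (2 of the 10, Snap25 and Syt1, are members). All 12 tested striatal medium spiny neuron markers were higher in every zinc diet mouse, with mean levels of 9.33 to 9.66 against 8.18 to 8.49, and 8 of 8 myelin markers had higher values (9.84 to 10.53 against 9.36 to 9.98). Excitatory neuron markers were at 9.16 to 9.21 in control and 9.22 to 9.46 in zinc diet mice, but were mixed by gene. Of 8, 3 had higher values and 5 lower (median -0.09), with 3 higher and 1 lower at an unadjusted p under 0.05 in limma. Of all genes tested, 4.36% were higher and 2.68% lower at that p, and 8.12% were higher in every zinc diet mouse. Inhibitory neuron markers were at 10.62 to 10.77 and 10.72 to 10.81. Astrocyte markers were at 10.71 to 10.89 and 10.72 to 10.86, microglia markers at 7.46 to 7.49 and 7.42 to 7.47, and endothelial markers at 6.42 to 6.59 and 6.57 to 6.62. Choroid plexus markers stood at 7.47 in control replicate 9 and at 4.20 to 4.88 in the other 5 mice. The list of amygdala markers, such as Crh, Nts and Cyp26b1, had 9 of 9 tested. Their mean levels were 8.34 to 8.75 in control and 8.89 to 8.97 in zinc diet mice. By gene, 8 had higher values and 1 lower (median 0.33), with 4 higher and 0 lower at an unadjusted p under 0.05 in limma. No detection call came with the values, so no marker could be called absent, and the part of these differences in the results below was not tested.

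Synaptotagmins, the family that includes the calcium sensors of vesicle release, had 12 of 16 members tested, of which 6 had higher and 6 lower values (median -0.017). Syt2, the fast sensor of many inhibitory and hindbrain terminals, had log2 levels of 3.96, 3.46 and 3.90 in control replicates 1, 9 and 11 and of 4.40, 4.75 and 4.24 in zinc diet replicates 3, 7 and 10. The lowest zinc diet value exceeded the highest control value, with a difference of 0.69 ± 0.18 (SE), the largest of the 78 members (limma unadjusted p = 0.0065, adjusted p = 0.58). Its mean over control mice, 3.77, was below the limit of 4, so the gene entered the test only through the zinc diet mice, at levels where no detection call shows whether signal exceeded background. Its other 2 probe sets, both under the limit, had differences of 0.30 and 0.27 with overlapping diets.

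Syt1, the main sensor of forebrain terminals, showed 13.52, 13.64 and 13.68 in control mice and 13.58, 13.55 and 13.56 in zinc diet mice. The zinc diet values fell inside the control range, and the difference was -0.05 ± 0.08 (SE), with a 95% interval of -0.23 to 0.13. Its other 3 tested probe sets gave -0.07, 0.29 and 0.47, all with overlapping diets, so the sign of the small difference depended on the probe set. Syt7, a slow sensor with high calcium affinity, was 11.57, 11.37 and 11.47 in control mice and 11.29, 11.42 and 11.47 in zinc diet mice. The difference of -0.08 (95% interval -0.28 to 0.13) was small beside the overlap of the diets. Another tested probe set of Syt7 was lower in every zinc diet mouse (-0.13 ± 0.07 SE, limma adjusted p = 0.84). The remaining tested probe set gave 0.02 with overlapping diets. Among the others, Syt9 had the lowest difference (-0.21 ± 0.09 SE, limma adjusted p = 0.80), with zinc diet replicate 3 above the lowest control mouse, and Syt16 and Syt13 had the highest after Syt2 (0.15 and 0.13). Syt11, Syt14, Syt12 and Syt4 lay within 0.09 of 0, and Syt17 and Syt5 at -0.12 and -0.18. Syt3, Syt6, Syt8 and Syt10 were below the limit and were not tested.

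Sytl2 encodes a synaptotagmin-like protein that binds RAB27 and docks secretory granules and other carriers at the plasma membrane. Its levels were 8.90, 9.05 and 9.01 in control replicates 1, 9 and 11 and 9.17, 9.42 and 9.45 in zinc diet replicates 3, 7 and 10. The diets did not overlap, and the difference was 0.36 ± 0.10 (SE; 95% interval 0.12 to 0.59; limma adjusted p = 0.63). Sytl2 had 1 probe set, of a design that can match several transcripts. Sytl1 and Sytl4 were below the limit.

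Syntaxins, the SNAREs of target membranes, had 12 of 14 members tested, with 6 higher and 6 lower values and a median of -0.0058. Stx1a, the neuronal plasma membrane syntaxin, was 12.32, 12.36 and 12.42 in control mice and 12.34, 12.35 and 12.42 in zinc diet mice. The values were nearly the same in both diets, with a difference of 0.0043 and a 95% interval of -0.16 to 0.17. The most positive value was that of Stx6, a syntaxin of the trans-Golgi network and endosomes, which was 11.57, 11.33 and 11.51 in control mice and 11.60, 11.73 and 11.71 in zinc diet mice. Its diets did not overlap by a narrow margin (0.21 ± 0.09 SE, limma adjusted p = 0.79), on a probe set of a shared design. Its other 4 tested probe sets gave 0.0050 to 0.17 with overlapping diets. Stx18, a syntaxin of the endoplasmic reticulum, was lower in every zinc diet mouse, with a difference of -0.11 ± 0.07 (SE) on a probe set of a shared design. Its other 4 tested probe sets overlapped between the diets, and 3 of them had positive differences (0.03, 0.05 and 0.17) and 1 a negative one (-0.14). The other 9 lay between -0.13 (Stx2) and 0.14 (Stx4a), among them the endosomal Stx7, Stx8 and Stx12, the Golgi syntaxins Stx5a and Stx16, the autophagosomal Stx17 and the plasma membrane syntaxin Stx3. Stx11 and Stx19 were not tested.

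Among the syntaxin-binding genes, those of the tomosyns, which hold syntaxin and SNAP25 in complexes that cannot fuse, took opposite values. Stxbp5l, the gene of tomosyn-2, was 10.11, 10.00 and 10.10 in control mice and 10.30, 10.34 and 10.41 in zinc diet mice. The diets were clearly apart on this probe set, with a difference of 0.28 ± 0.07 (SE; 95% interval 0.11 to 0.46; limma adjusted p = 0.59). Its other 2 tested probe sets did not show this: they differed by -0.0019 ± 0.13 and 0.034 ± 0.08 (SE), with overlapping diets, and the mean of the 3 differed by 0.10. Stxbp5, the gene of tomosyn-1, was 9.80, 9.94 and 9.87 in control mice and 9.72, 9.76 and 9.65 in zinc diet mice. All zinc diet values were lower, with a difference of -0.16 ± 0.08 (SE; 95% interval -0.34 to 0.02; limma adjusted p = 0.81), and the other 2 probe sets gave -0.11 and -0.0085, with overlapping diets. Whether the 2 tomosyn genes differ in their change was not tested. Stxbp4 was lower in every zinc diet mouse, at -0.07, while its other 2 tested probe sets gave 0.0032 and -0.12 with overlapping diets. Stxbp6 (amisyn) gave -0.07 and Stxbp3, which serves syntaxins outside neurotransmission, 0.02.

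The SNAP genes other than the Snapc group had 6 of 6 members tested, with 4 higher and 2 lower values (median 0.071). Snap25, the neuronal SNARE that pairs with syntaxin 1, was 13.88, 13.83 and 13.85 in control mice and 13.90, 13.91 and 13.95 in zinc diet mice. Every zinc diet value was higher, yet the difference was only 0.07 ± 0.07 (SE), and the 95% interval of -0.09 to 0.22 corresponds to a fold between 0.938 and 1.17. Its other tested probe set gave 0.15 ± 0.15 (SE) with overlapping diets. Snap29, a widely expressed SNARE of autophagy and endosomal fusion, was 6.22, 6.51 and 6.34 in control mice and 6.51, 6.59 and 6.64 in zinc diet mice, with the diets meeting at 6.51 (0.22 ± 0.10 SE, limma adjusted p = 0.79). Snap91, which encodes the clathrin adaptor AP180, gave 0.07, Snap23 0.14, Snap47 -0.07 and Snapin -0.03.

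VAMPs, the vesicle SNAREs, had all 7 members tested, with 4 higher and 3 lower values (median 0.020). Vamp7, a long VAMP of late endosomes, lysosomes and some secretory vesicles, was 9.93, 9.95 and 9.90 in control mice and 10.12, 10.24 and 10.19 in zinc diet mice. The control values lay close together and below all zinc diet values (difference 0.26 ± 0.07 SE; 95% interval 0.09 to 0.43; limma adjusted p = 0.65), while its second tested probe set gave 0.11 ± 0.09 (SE) with overlapping diets. Vamp2, the main synaptic vesicle SNARE of the forebrain, was 12.18, 11.80 and 12.01 in control mice and 11.99, 12.01 and 12.15 in zinc diet mice. The spread between control mice was wider than the difference of 0.05 (95% interval -0.22 to 0.32). The other tested probe set of Vamp2, at a mean level of 6.29, was higher in every zinc diet mouse (0.21 ± 0.11 SE, limma adjusted p = 0.82). Vamp1, its counterpart in fast-firing neurons, was 8.41, 7.96 and 8.37 in control mice and 8.43, 8.79 and 8.24 in zinc diet mice. The diets overlapped, and the interval of its difference, -0.18 to 0.67 around 0.24, was among the widest. Vamp3, Vamp4, Vamp5 and Vamp8 lay between -0.07 and 0.02 on the probe sets that stand for them. Another tested probe set of Vamp4 was higher in every zinc diet mouse (0.14 ± 0.07 SE, limma adjusted p = 0.81), and the remaining one gave 0.01 with overlap. The other tested probe sets of Vamp3 gave -0.11 to 0.12 with overlapping diets.

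**Figure D2:**
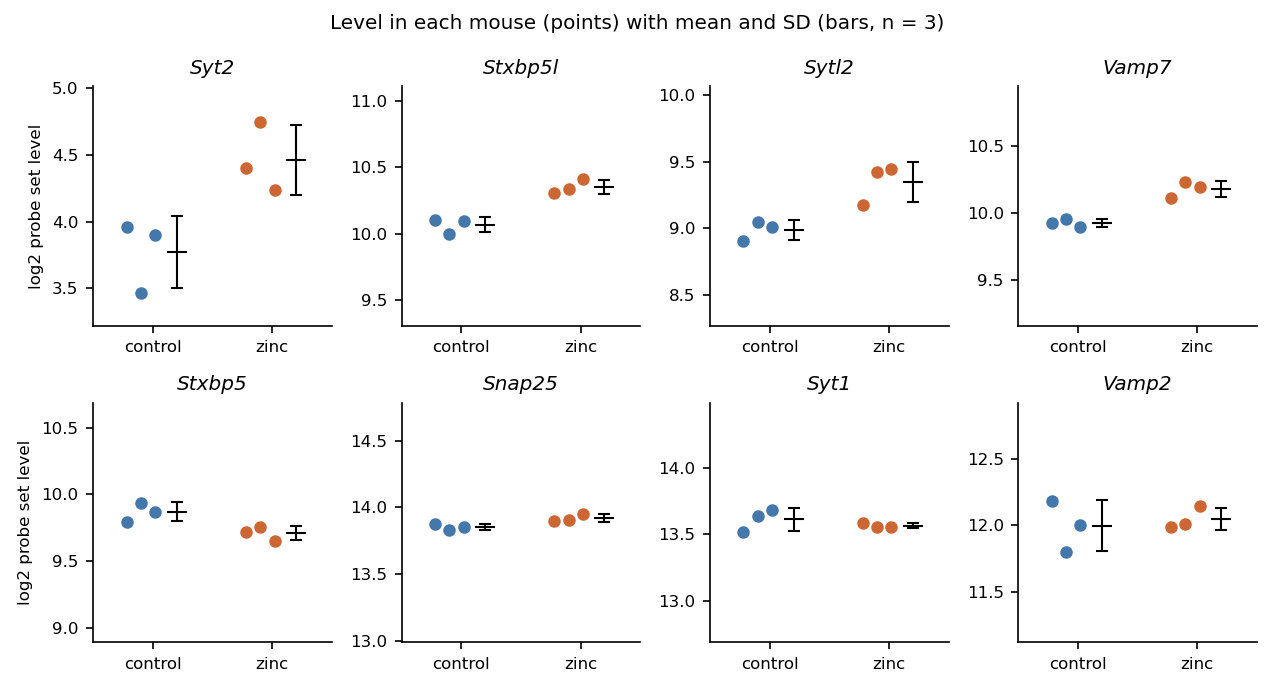
Log2 probe set level (y axis, the same span in every panel) in each control and zinc diet mouse, with the mean and SD of each diet beside the points. Syt2, Stxbp5l, Sytl2 and Vamp7 had the smallest unadjusted p-values; Stxbp5 was lower in every zinc diet mouse, and Snap25, Syt1 and Vamp2 are core release genes with differences from -0.05 to 0.07.

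Complexins and UNC13 proteins act on the SNAREs just before fusion. Cplx1 was 11.73, 11.92 and 11.94 in control mice and 11.87, 11.93 and 11.76 in zinc diet mice, and the diets overlapped (difference -0.0094, 95% interval -0.23 to 0.21). Cplx2, the complexin of most forebrain excitatory neurons, was 12.90, 12.92 and 13.06 in control mice and 12.87, 12.93 and 12.94 in zinc diet mice. It differed by -0.05 (95% interval -0.23 to 0.14), also with overlap. Cplx3, best known from retinal ribbon synapses, was 3.44, 4.20 and 4.04 in control mice and 4.05, 4.48 and 4.18 in zinc diet mice; its control mean of 3.89 was below the limit, so like Syt2 it was tested only through the zinc diet mice (0.35 ± 0.21 SE). Cplx4 was not tested.

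Unc13a, the main priming factor of central synapses, was 9.42, 9.09 and 9.20 in control mice and 9.17, 9.19 and 9.26 in zinc diet mice. Unc13b, its paralog with a narrower use, was 9.88, 9.89 and 9.85 in control mice and 9.80, 9.93 and 9.74 in zinc diet mice. Unc13c, the paralog best known from the cerebellum, was 11.18, 10.77 and 10.94 in control mice and 11.02, 11.08 and 10.87 in zinc diet mice. The diets overlapped for all of them, with differences of -0.03, -0.05 and 0.03, and their intervals together spanned -0.27 to 0.32. Control replicate 1 was highest for Unc13a and Unc13c. Unc13d, which acts in granule release by blood cells, was not tested.

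RIMs, the active zone scaffolds that bind RAB3 and UNC13, were the family of more than 1 tested gene in which every value was positive (4 of 4, median 0.15), and 0 of the 4 had an unadjusted p under 0.05. Rims1 was 11.49, 11.34 and 11.49 in control mice and 11.41, 11.39 and 11.53 in zinc diet mice. The diets overlapped, with a difference of 0.0041 (95% interval -0.19 to 0.20). The other tested probe set of Rims1 was higher in every zinc diet mouse, with a difference of 0.03 ± 0.07 (SE). Rims2 was 10.93, 10.55 and 10.51 in control mice and 10.63, 10.83 and 10.92 in zinc diet mice. On the probe set that stands for Rims2, control replicate 1 stood apart from its diet group. The difference was 0.13 ± 0.14 (SE) with it and 0.27 without it, where the unadjusted p in limma was 0.0495. Another tested probe set of Rims2 had control replicate 1 lowest of the control mice (10.22 against 10.77 and 10.68) and a difference of -0.03. The remaining tested probe set gave 0.10, and the diets overlapped on both. Rims3 and Rims4, which encode short forms lacking the RAB3-binding part, gave 0.17 and 0.17, with overlap in both.

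RAB3 GTPases, which mark docked vesicles, had 4 of 4 members tested. Rab3a, the main brain form, was 10.98, 11.05 and 11.23 in control mice and 11.18, 11.12 and 10.96 in zinc diet mice. Rab3b was 8.40, 8.25 and 8.46 in control mice and 8.41, 8.48 and 8.39 in zinc diet mice. Rab3c was 12.63, 12.64 and 12.61 in control mice and 12.64, 12.61 and 12.69 in zinc diet mice. The diets overlapped for each, with differences of 0.0030, 0.05 and 0.02 and 95% intervals between -0.23 and 0.25. Rab3d, a form of secretory granules outside the brain, gave -0.15. The regulators of RAB3 gave -0.03 (Rab3gap1), 0.13 (Rab3gap2) and 0.07 (Rab3ip), and Rab3il1 was not tested.

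Synapsins, the phosphoproteins that tether vesicles to each other and to actin, had all 3 members tested. Syn1 was 10.56, 10.43 and 10.78 in control mice and 10.60, 10.61 and 10.64 in zinc diet mice; its probe set is of a shared design. Syn2 was 12.95, 12.97 and 12.65 in control mice and 12.95, 12.76 and 12.76 in zinc diet mice. Syn1 and Syn2 overlapped between the diets, with differences of 0.03 (95% interval -0.22 to 0.27) and -0.04 (-0.31 to 0.24). Syn3 was 9.18, 9.11 and 9.21 in control mice and 9.21, 9.28 and 9.37 in zinc diet mice. The lowest zinc diet value of Syn3 lay just above the highest control value, and the difference was 0.12 ± 0.08 (SE, limma adjusted p = 0.85), again on a probe set of a shared design. Its other tested probe set, of an unshared design, gave the opposite sign, -0.01 ± 0.17 (SE), with overlapping diets.

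SV2 proteins are vesicle membrane glycoproteins that bind synaptotagmin 1 and serve as the entry site of some botulinum toxins. Sv2a was 11.49, 11.26 and 11.48 in control mice and 11.25, 11.39 and 11.35 in zinc diet mice. Sv2b was 12.79, 12.84 and 12.86 in control mice and 12.84, 12.82 and 12.99 in zinc diet mice. Both overlapped between the diets, at -0.08 (95% interval -0.30 to 0.14) and 0.06 (-0.13 to 0.24). Sv2c, which is enriched in the basal ganglia, stayed below the limit, at 2.79, 3.29 and 3.06 in control mice and 3.14, 3.36 and 3.16 in zinc diet mice.

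The Snapc group, which shares only a prefix with the SNAP genes, had 1 higher and 3 lower values among 4 tested (median -0.15), of which Snapc2 and Snapc4 were the lowest at -0.25 ± 0.13 and -0.21 ± 0.11 (SE), with overlapping diets. Averaged over the 4 genes, the deviation from each gene's own mean was 0.030 to 0.086 in control mice and -0.16 to -0.0068 in zinc diet mice, which did not overlap, although 0 of the 4 passed an unadjusted p under 0.05. Over the 15 families this mean was lower in every zinc diet mouse in 1, the Snapc genes. It was higher in every zinc diet mouse in 2, the VAMPs (-0.0069 to 0.106 against -0.0714 to -0.0096) and the single synaptotagmin-like gene tested. The VAMP ranges nearly met, at -0.0069 and -0.0096, and of the 7 VAMPs 4 had positive and 3 negative differences. Vamp7 was the 1 VAMP without overlap on the probe set that stands for it, and its part in the family mean was not tested. Snapc5 was not tested. Among the Rab30 to Rab39b genes, 9 of 12 were tested and gave -0.21 (Rab36) to 0.33 (Rab39), with Rab39b higher and Rab36 lower in every zinc diet mouse and 0 of 9 at an unadjusted p under 0.05. Rab32, Rab37 and Rab38 were not tested. Of the 17 members below the limit in all, which spanned mean levels of 2.10 to 3.91, Sytl4 was the 1 with an unadjusted p under 0.05 when no limit was set (2.99, 3.30 and 2.72 in zinc diet mice against 3.62, 3.37 and 3.41 in control mice, a difference of -0.46).

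**Figure D3:**
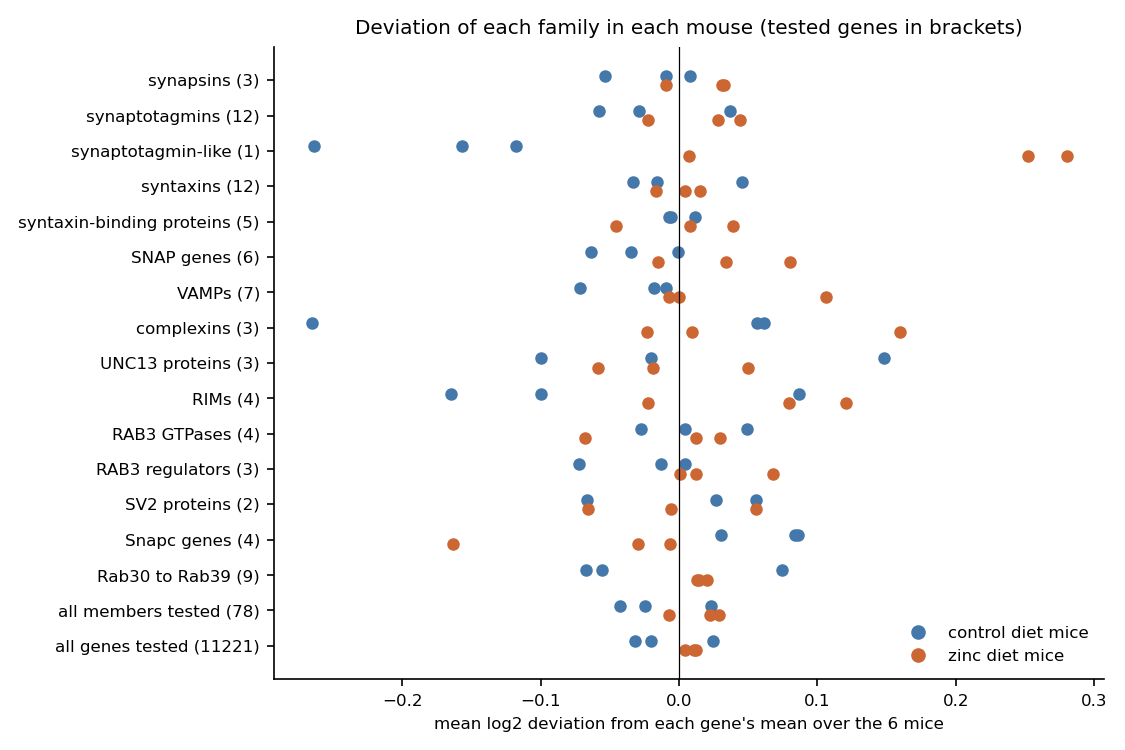
Mean log2 deviation of the tested genes of each family from each gene's own mean over the 6 mice (x axis), 1 point per mouse. The diets overlap in most families; the far point of the complexins is control replicate 1 (-0.265), where Cplx3 was at 3.44, and the synaptotagmin-like row is Sytl2 alone.

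Averaged over the 78 members, the deviation from each gene's mean was -0.0245, -0.0425 and 0.0228 in control replicates 1, 9 and 11 and -0.0071, 0.0286 and 0.0227 in zinc diet replicates 3, 7 and 10. The 2 diets overlapped, and over all genes tested the same values ran from -0.0319 to 0.0249. Control replicate 9, the mouse with high choroid plexus markers, had the lowest mean of the members. The control range was wider than the zinc diet range for the RIMs (-0.165 to 0.0868 against -0.0227 to 0.121) and the UNC13 proteins (-0.10 to 0.148 against -0.0584 to 0.0498), and control replicate 1 was the highest control mouse in both.

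The members had 214 probe sets in all, of which 155 were tested, and 48 members had more than 1 tested. The 77 tested probe sets other than the standing one shared its sign in 46 cases, and 3 (3.90%, against 6.38% of all 22877 probe sets tested) had an unadjusted p under 0.05, with 0 at an adjusted p under 0.05. Snapin, which encodes a SNAP25-binding protein of vesicle and lysosome transport, had the smallest p of all tested probe sets of the members on the lower of its 2. That probe set was 6.15, 6.33 and 6.24 in control mice and 6.66, 6.68 and 6.55 in zinc diet mice (0.39 ± 0.08 SE, limma adjusted p = 0.44), while the standing one gave -0.03 ± 0.07 (SE). A second probe set of Cplx2 was 10.57, 10.62 and 10.83 in control mice and 10.44, 10.43 and 10.19 in zinc diet mice (-0.32 ± 0.11 SE, limma adjusted p = 0.72), against -0.05 and 0.0037 on its other 2. A second probe set of Snapc3 gave 0.28 ± 0.08 (SE), against 0.02 on the standing one and 0.06 on the other tested. In each of these 3 genes the diets did not overlap on the one probe set and overlapped on the others tested. These 3 probe sets were of designs that can match several transcripts or forms, as was the standing probe set of Snapin. The 2 Snapin probe sets were not of the same such design, and the part of design in their difference was not tested. In 16 tested members the standing probe set was of a shared design, among them Stx1a, Stx6, Cplx1 and Snapc2.

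**Figure D4:**
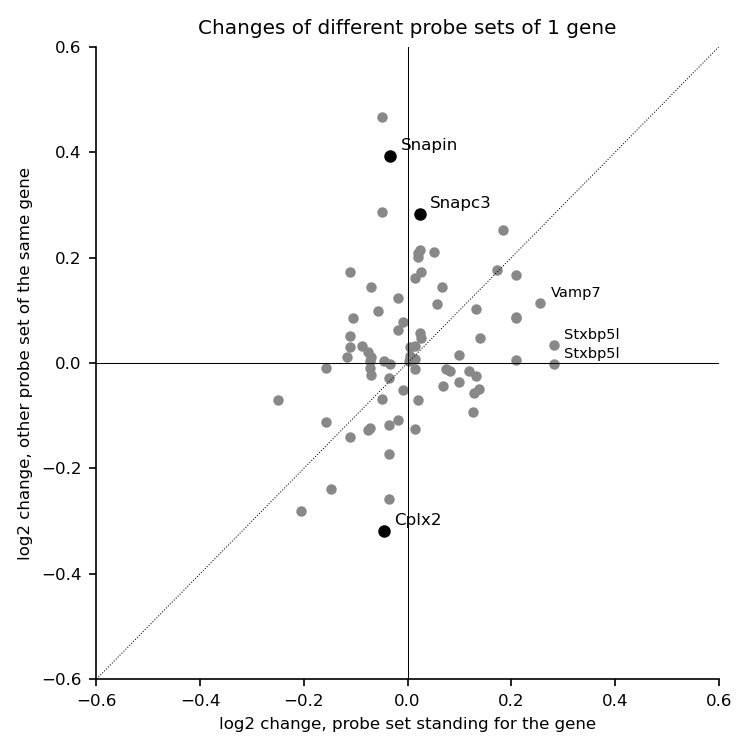
Log2 difference on the probe set standing for a member (x axis) against that on each other tested probe set of the same gene (y axis), 77 points for 48 genes; black marks an unadjusted p under 0.05 on the other probe set. Snapin, Snapc3 and Cplx2 lie far from the dotted line of equal change, and both other probe sets of Stxbp5l lie near 0 on the y axis.

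Other genes of the vesicle cycle, outside the families, were taken from 4 lists. Active zone scaffolds and channels (20 tested, median 0.0058), SNARE recycling and priming factors (17 tested, median -0.011) and endocytosis genes (23 tested, median 0.016) had 0 genes at an unadjusted p under 0.05 in either direction, against the 7.04% of all genes given above. Among vesicle membrane and transmitter loading genes (18 tested, 9 higher and 9 lower values, median -0.020) there were 0 higher and 1 lower at that p. The 1 was Slc30a3, the transporter that fills synaptic vesicles with zinc, at 8.26, 8.61 and 8.87 in control mice and 8.06, 7.78 and 8.17 in zinc diet mice. Its diets did not overlap, and the difference was -0.58 ± 0.18 (SE; 95% interval -0.99 to -0.16; limma adjusted p = 0.70). The vesicular transporters of glutamate and GABA gave 0.0090 (Slc17a6), -0.08 (Slc17a7) and 0.08 (Slc32a1), and the vesicle protein genes Syp and Scamp1 0.0046 and 0.03. By overlap alone, 1 of the 18 vesicle membrane and loading genes was higher and 4 lower in every zinc diet mouse, Slc30a3 included. These counts were 0 and 2 for active zone genes, 0 and 0 for SNARE recycling and priming, and 2 and 1 for endocytosis. Of all genes tested, 8.12% were higher and 5.55% lower in every zinc diet mouse.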

How the data were processed

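The authors deposited 1 table of log2 probe set levels from the Affymetrix Mouse430_2 array, made from 500 ng of total RNA per mouse per the labels' protocols. The submitters' processing notes list GCRMA 2.28.0 and R 2.15.1 but no options, filters or centring. That the values are log2 was inferred from their range, and array medians lay between 4.04 and 4.09. No scanner files were used here, so depth in the sense of signal over background is unknown, and 3 arrays per diet limit the precision.

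The table held 45101 probe sets. After leaving out 64 control probe sets, those with a mean of at least 4 (22877) were fitted with limma 3.58.1 in R 4.3.3 (lmFit, eBayes, a two-sided test of diet on all 6 arrays with no covariate), with Benjamini-Hochberg adjustment over all of them. The fit was tested on simulated data. Of 18193 genes with 1 annotation symbol, 11221 had their highest probe set tested. Symbols of all members matched the RefSeq gene table through Entrez numbers.

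Intervals and SEs are moderated ones from that fit; SDs are over 3 mice. Values by mouse are given for members with an unadjusted p under 0.05 and for a listed set of core release genes, whatever their change; pathway genes are named at an unadjusted p under 0.05; other genes were picked for the text with their values in view. The members, lists and tests were chosen with earlier results of these data known, and no set test was run. The alternatives were no minimum level, a minimum of 6, quantile normalization, median centring, trend and robust eBayes, a fit on 1 probe set per gene, averaging the probe sets of each gene, probe sets of unshared design, values under 4 set to 4, prefix members left out, and each mouse left out. A minimum of 4 in each diet was added after seeing the data.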

Additional observations from a re-analysis of the deposited data

How the results depend on the processing

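The number of members at an adjusted p under 0.05 was 0 in the main analysis and in all 17 alternatives. The number at an unadjusted p under 0.05, 4 in the main analysis, was 7 with 1 probe set per gene (8.97% of members, against 8.35% of all genes), 8 when the probe sets of each gene were averaged (10.3% against 8.26%), and 4 to 9 when 1 mouse was left out; the 9 came without control replicate 1 (11.5% against 10.1%). In the other alternatives it was 3 to 6. The median difference of the members lay between 0.0042 and 0.026 throughout. Of the 4, Syt2, Sytl2 and Vamp7 kept an unadjusted p under 0.05 wherever they were fitted. Stxbp5l lost it in limma when its probe sets were averaged, with a difference of 0.10. Syt2 was left out by a minimum of 6, or of 4 in each diet, and Sytl2 by the unshared designs. Over 26 genes named by rule, 0 reversed a call, and uncalled differences changed sign in 28 fits with no call on either side. Among these, Syn3 went from 0.12 to -0.01 on unshared designs and Syt1 from -0.05 to 0.16 when its probe sets were averaged. No paired analysis was possible because the diets share no replicate number. No detection calls were used, so signal over background is unknown near a level of 4, which limits Syt2, Cplx3 and the 17 members not tested.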
